A study of Mus musculus with 11 samples.

Results

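The genes described here are 40 mouse genes of homologous recombination, the Fanconi anaemia pathway and the DNA damage checkpoint, with the Ku proteins of end joining and the mismatch protein *Msh6* beside them. They were chosen by symbol from a list written with earlier results of these data known. All 40 were found among the 55536 genes of each count table. Islet RNA from C57BL/6J wild-type female mice was measured by bulk RNA-seq in 11 libraries. Of these, 3 libraries were labelled virgin S-961, 4 multipara S-961, 2 virgin untreated and 2 multipara untreated. Multiparous mice were 9 weeks old when breeding began, went through 3 consecutive pregnancies, and had their islets taken once 3 weeks had passed since the final litter, with virgin mice of the same age as controls. S-961 is a peptide antagonist of the insulin receptor, given at 100 nmol/kg 2 times a day for 3 days to raise the demand for insulin. The untreated libraries came from mice without this injection, and no group carried a gene alteration.

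Homologous recombination repairs a broken chromosome by copying the intact sister chromatid: the broken end is resected to single-stranded DNA, which BRCA1, PALB2 and BRCA2 prepare to invade the sister. The Fanconi pathway unhooks crosslinks between strands at stalled replication forks and hands the break to recombination, while the ATR and ATM kinases halt the cycle through CHEK1, CHEK2 and p53. Since the sister chromatid exists only after replication, many of these genes are transcribed mainly in cycling cells, whereas Ku-dependent end joining and the upstream kinases also serve resting cells such as most adult beta cells.

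Total counts ran from 22028507 to 32234146 per library, and no pair of libraries within a group agreed within sampling noise. Levels are CPM, a gene's counts relative to the TMM-scaled total of its library, scaled over all 11 libraries together, and fold changes are log2 values with their standard error (SE) from edgeR. The library labelled multipara S-961 replicate 4 stood with the virgin S-961 libraries in the proliferation marker *Mki67*: it held 3.93 CPM, against 93.9, 65.5 and 43.5 CPM in multipara S-961 replicates 1 to 3 and 3.43, 13.9 and 3.04 CPM in the virgin S-961 libraries. Calls between multipara and virgin S-961 libraries are therefore given with and without it. Replicate 4 was singled out by these values, so that calls without it describe the libraries left and are no separate evidence of a difference. Parity rests on the labels alone, and no marker in the tables was used to check it, so that each direction below is that between libraries labelled multipara and libraries labelled virgin. Beta cell markers were high in every library (120267 to 226035 CPM summed over 8 genes with S-961, 455162 to 612554 CPM without). Acinar enzymes summed to 2036 to 8168 CPM in virgin S-961, 5129 to 15340.5 CPM in multipara S-961 and 68.2 to 201 CPM in untreated libraries. Immune markers stood out in multipara untreated replicate 1, at 1048 CPM against 113 to 149 CPM in the other untreated libraries. In bulk RNA, more cells of a type and more RNA per cell cannot be told apart.

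The 40 genes differed widely in how much they varied. Between the lowest and the highest of the 11 libraries, log2 CPM (prior count 2) spanned less than 1 for 10 genes and more than 2 for 22 genes, of which 16 spanned more than 3. With TMM the steadiest were *Rad51d*, a gene of homologous recombination, with a span of 0.46, *Fancc* of the Fanconi core with 0.49, and *Xrcc5*, the larger Ku subunit, with 0.49. With plain library totals in place of TMM the spans of these 3 were 1.12, 0.85 and 0.64, and the smallest was 0.29 for *Mus81*. The widest spans were 6.98 for *Exo1*, an exonuclease of end resection, 6.16 for *Clspn*, which presents CHEK1 to ATR, and 5.25 for *Bard1*, the partner of BRCA1. Scaled per kilobase of exon, which allows levels of different genes to be compared, the highest mean levels over the 11 libraries were 14.1 CPM per kb for *Xrcc5*, 9.45 for *Xrcc6*, 7.48 for *Trp53bp1* and 6.5 for *Trp53*. The lowest were 0.0944 for *Rad51b* and 0.129 for *Palb2*, and 14 of the 40 genes had a mean under 1 CPM in virgin S-961 islets.

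**Figure D1:**
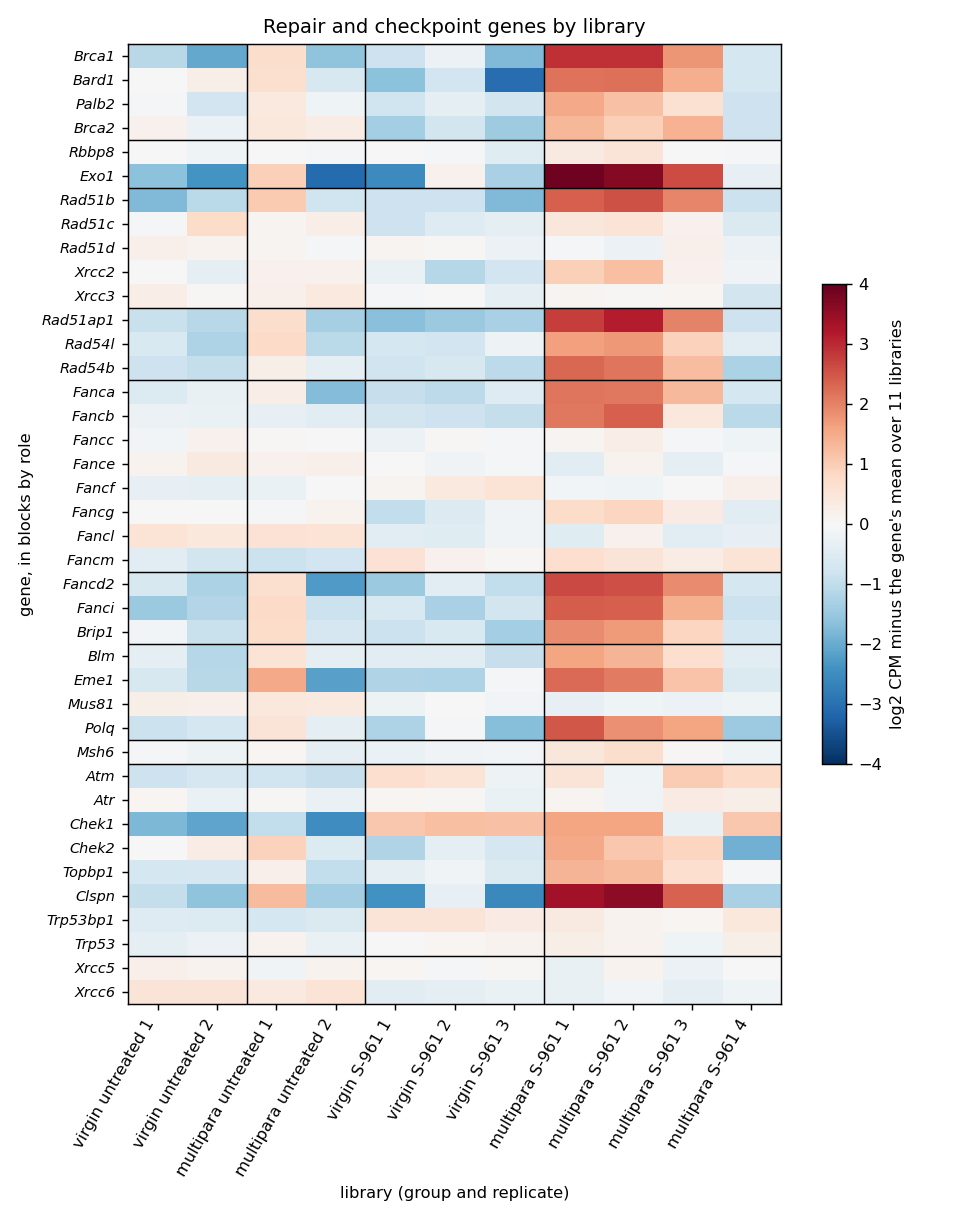
Heat map of the 40 genes (rows, in blocks by role) in the 11 libraries (columns), coloured by log2 CPM minus the gene's mean over the libraries. Red cells gather in multipara S-961 replicates 1 to 3 and, more weakly, in multipara untreated replicate 1, while multipara S-961 replicate 4 has mostly the pale or blue cells of the virgin S-961 libraries. *Chek1* is red in 6 of the 7 S-961 libraries whatever the parity.

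Promoter windows of 5 genes are shown because they span the patterns described below. *Rad51ap1*, *Clspn* and *Brca1* were among the genes highest in multipara S-961 replicates 1 to 3, and *Chek1* was high in virgin S-961 islets too. *Trp53* varied less than these, with a span of 0.58 in log2 CPM, or 1.19 with plain totals. Each window runs from 250 bases before to 50 bases after the RefSeq start on GRCm38.p6, 5′ to 3′ on the gene's strand. Capitals mark an E2F core, the letters TTCCCGC or TTGGCGC or TTCGCGC or TTGCCGC on either strand, which the E2F factors of the G1 to S transition are known to recognise. The windows are *Rad51ap1* at chr6:126939538-126939837, minus strand, *Clspn* at chr4:126556730-126557029, plus strand, *Brca1* at chr11:101551906-101552205, minus strand, *Chek1* at chr9:36726609-36726908, minus strand and *Trp53* at chr11:69580109-69580408, plus strand.
Rad51ap1: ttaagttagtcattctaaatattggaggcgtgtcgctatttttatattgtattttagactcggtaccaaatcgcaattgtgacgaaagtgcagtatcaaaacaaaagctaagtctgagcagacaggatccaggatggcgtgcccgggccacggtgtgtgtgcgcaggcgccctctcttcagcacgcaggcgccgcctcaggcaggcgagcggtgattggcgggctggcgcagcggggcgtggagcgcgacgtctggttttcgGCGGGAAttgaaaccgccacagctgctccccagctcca
Clspn: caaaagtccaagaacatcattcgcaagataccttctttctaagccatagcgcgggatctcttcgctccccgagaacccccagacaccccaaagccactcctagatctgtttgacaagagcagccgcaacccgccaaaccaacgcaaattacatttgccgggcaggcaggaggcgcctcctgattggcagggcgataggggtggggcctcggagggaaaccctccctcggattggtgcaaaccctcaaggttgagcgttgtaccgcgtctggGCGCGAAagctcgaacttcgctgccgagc
Brca1: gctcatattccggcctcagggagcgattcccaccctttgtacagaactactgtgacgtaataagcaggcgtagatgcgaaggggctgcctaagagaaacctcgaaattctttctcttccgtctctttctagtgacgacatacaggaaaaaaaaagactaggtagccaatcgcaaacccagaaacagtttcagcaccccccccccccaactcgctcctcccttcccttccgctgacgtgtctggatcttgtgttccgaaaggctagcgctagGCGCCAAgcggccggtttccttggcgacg
Chek1: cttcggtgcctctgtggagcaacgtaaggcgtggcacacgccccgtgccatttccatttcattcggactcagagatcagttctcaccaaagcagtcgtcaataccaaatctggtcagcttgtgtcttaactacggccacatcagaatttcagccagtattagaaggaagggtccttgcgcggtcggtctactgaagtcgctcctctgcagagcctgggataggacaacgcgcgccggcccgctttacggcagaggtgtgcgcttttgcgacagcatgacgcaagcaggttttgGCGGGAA
Trp53: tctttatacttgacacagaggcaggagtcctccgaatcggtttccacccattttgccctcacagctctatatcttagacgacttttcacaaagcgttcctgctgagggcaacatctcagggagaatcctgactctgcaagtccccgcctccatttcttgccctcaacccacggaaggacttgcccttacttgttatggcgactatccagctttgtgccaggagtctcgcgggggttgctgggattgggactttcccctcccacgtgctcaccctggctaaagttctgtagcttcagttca

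RefSeq windows were matched for 34 of the 40 genes, and 20 of these 34 held an E2F core (58.8%), compared with 9.57% of all 32851 windows of this length. The shares of the 34 are per gene, a gene with several windows counting if any of them held the letters. The shares of all windows are per window. A core was found in 12 of the 17 matched genes with a log2 fold change over 1 between multipara and virgin under S-961, and in 8 of the other 17. In *Rad51ap1*, *Clspn* and *Brca1* the core lay near the start of transcription, in *Chek1* it formed the last bases of the window, and *Trp53* held none. CCAAT, the letters bound by NF-Y, stood in 21 of the 34 windows (61.8%, against 37.4% of all windows). The letters of the CHR element of late cell cycle genes, TTTGAA or TTCGAA, stood in 5 of the 34 (14.7%, against 19.2%). One place can count for several motifs where the letters overlap, and a match of letters does not show that a factor binds there.

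The first comparison asked how islets of multiparous and virgin mice differ when insulin demand is raised. Under S-961, 34 of the 40 genes had a positive fold change for multipara over virgin and 21 had a log2 fold change over 1, against 6.86% of all genes tested. The median over the 40 genes was 1.33 on the log2 scale, while the median over all genes tested was 0.0035. None of the 40 passed edgeR's quasi-likelihood test at a Benjamini-Hochberg adjusted p of 0.05, and neither did any of the 16784 genes tested (0.0%), the smallest adjusted p among the 40 being 0.315. At an unadjusted p under 0.05, 23 of the 40 were higher (8.03% of all genes tested) and 0 were lower (1.68%). DESeq2 called 19 of the 40 higher (1.73% of its 19110 genes) and 0 lower (0.0471%).

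The spread came mostly from 1 library. In multipara S-961 replicates 1, 2 and 3, 31, 33 and 28 of the 40 genes exceeded all 3 virgin S-961 libraries, and 21, 21 and 19 did so by more than 2 times the highest of them. In replicate 4, 8 genes exceeded all virgin libraries and 0 did so by more than 2 times. Replicate 4 was the lowest of the multipara S-961 libraries for 27 of the 40 genes, against 23.3% of all genes tested. Without it, edgeR called 20 of the 40 genes higher (2.69% of 16590 genes) and 0 lower (0.47%), with a median log2 fold change of 1.53. Leaving out a library picked for its low level widens the difference, so these calls are a description of replicates 1 to 3 against the virgin libraries.

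Proliferation genes differed in the same direction between the libraries so labelled. *Mki67* differed by 2.95 ± 0.94 (log2, adjusted p = 0.362, edgeR), and 20 of 20 cycling cell genes had a log2 fold change over 1, with a median of 2.76. Without replicate 4 that median was 3.12, and edgeR called 19 of the 20 higher. Their summed level was 123, 142 and 117 CPM in virgin S-961 and 755, 823, 350.2 and 121 CPM in multipara S-961. Acinar enzymes had 10 of 10 positive fold changes, with a median of 1.02, or 1.26 without replicate 4, and edgeR called 0 of them in either case. Of 7 stromal markers, 7 had positive fold changes (5 called without replicate 4), and they summed to 64.9, 68 and 69.6 CPM in virgin S-961 and 157, 139.8, 286 and 129 CPM in multipara S-961. Alpha cell markers summed to 14150 to 15641 CPM in virgin S-961 and 16409 to 24352 CPM in multipara S-961. The sums of duct, immune, endothelial, delta and beta cell markers overlapped between these groups. The part of cycling cells, acinar cells, stroma and alpha cells in the repair genes' levels was not tested.

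**Figure D2:**
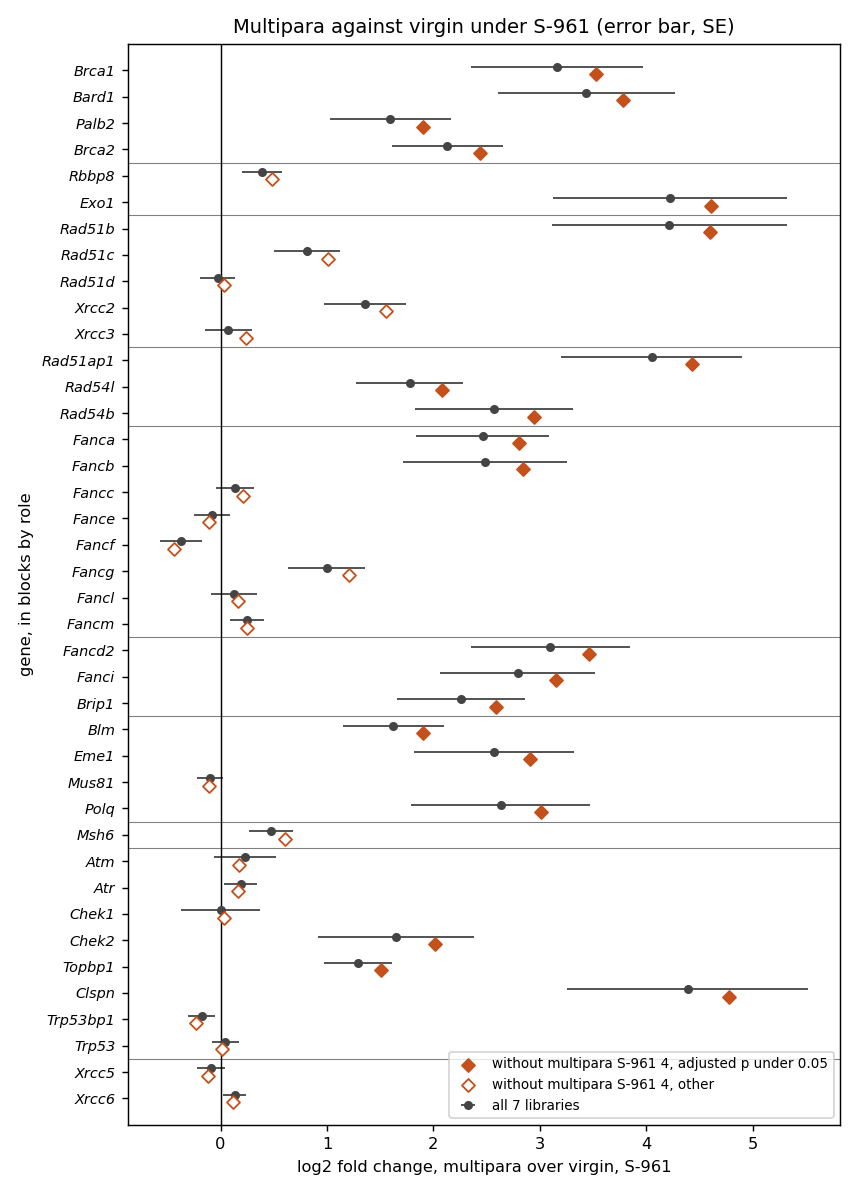
Log2 fold change of multipara over virgin under S-961 for the 40 genes in blocks by role, with all 7 libraries (dark circles, error bar SE) and without multipara S-961 replicate 4 (diamonds, filled at an adjusted p under 0.05 by edgeR). The 20 filled diamonds lie between 1.51 and 4.78, while *Trp53*, *Atm*, *Atr*, *Chek1*, both Ku genes and 6 of the 8 Fanconi core genes have open diamonds. *Rad51b*, with 0 to 2 counts in virgin S-961 libraries, is drawn at its fitted value.

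Among the BRCA mediators of recombination, all 4 genes were higher in multipara S-961 replicates 1 to 3. *Brca1*, whose product with BARD1 forms a ubiquitin ligase that favours resection, held 1.11, 1.72 and 0.55 CPM in the virgin S-961 libraries and 15.8, 15.8, 7.05 and 1.24 CPM in the multipara S-961 libraries. *Bard1* held 0.278, 0.573 and 0.0647 CPM in virgin and 4.8, 4.95, 2.91 and 0.591 CPM in multipara. For *Brca1* the value of multipara replicate 4 lay inside the virgin range, and for *Bard1* it exceeded the highest virgin value by a narrow margin, so that the groups did not overlap. *Palb2*, which tethers BRCA2 to BRCA1, stood at 0.433, 0.604 and 0.453 CPM in virgin and 2.41, 1.86, 1.26 and 0.414 CPM in multipara. *Brca2*, which acts after resection to start strand invasion, stood at 1.02, 1.6 and 0.971 CPM in virgin and 6.8, 5.24, 7.16 and 1.48 CPM in multipara. The same division appeared for both, with replicate 4 below every virgin library for *Palb2* and inside the virgin range for *Brca2*. The log2 fold changes were 3.16 ± 0.80 for *Brca1*, 3.44 ± 0.83 for *Bard1*, 1.59 ± 0.57 for *Palb2* and 2.13 ± 0.52 for *Brca2*, with adjusted p (edgeR) between 0.315 and 0.398. Without replicate 4 all 4 passed, at an adjusted p between 0.0052 and 0.0400.

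The genes of end resection parted ways. *Exo1*, which extends the resected end, held 0.0309, 0.573 and 0.162 CPM in virgin S-961 and 8.35, 7.1, 3.35 and 0.384 CPM in multipara S-961, and differed by 4.22 ± 1.1 on the log2 scale (adjusted p = 0.315, edgeR). *Rbbp8*, which encodes CtIP, the factor that starts resection, held 13.5, 12.7 and 9.58 CPM in virgin and 17, 18.9, 13.4 and 12.6 CPM in multipara, a log2 fold change of 0.39 ± 0.19. *Exo1* was thus near the limit of detection outside multipara S-961 replicates 1 to 3 and multipara untreated replicate 1, with 1 to 19 counts in each virgin S-961 library, while *Rbbp8* was measured in every library and its groups overlapped. Without replicate 4 the values were 4.61 ± 0.73 (adjusted p = 0.0152) for *Exo1* and 0.48 ± 0.18 (adjusted p = 0.229, edgeR) for *Rbbp8*.

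The genes *Rad51b*, *Rad51c*, *Rad51d*, *Xrcc2* and *Xrcc3*, whose products work together in homologous recombination, ranged from nearly undetected to steady. *Rad51b* had 2, 2 and 0 counts in the virgin S-961 libraries and 42, 43, 32 and 2 counts in the multipara S-961 libraries, too few in virgin islets for a fold change to be read. It is nevertheless among the 21 genes with a log2 fold change over 1 and the 20 called without replicate 4 (adjusted p = 0.013, edgeR). *Rad51d* held 15.2, 14.6 and 12.1 CPM in virgin and 13.6, 12, 16.5 and 12.1 CPM in multipara, a log2 fold change of -0.026 ± 0.16. Its groups overlapped throughout. *Xrcc2* showed no overlap, with 2.91, 1.54 and 2.04 CPM in virgin and 6.75, 8.12, 3.96 and 3.13 CPM in multipara and a log2 fold change of 1.36 ± 0.39. Without replicate 4 its adjusted p was 0.0533 (edgeR). The values were 0.81 ± 0.31 for *Rad51c* and 0.074 ± 0.22 for *Xrcc3*. Without replicate 4, *Rad51c* was at 1.01 ± 0.23 (adjusted p = 0.0631), *Rad51d* at 0.033 ± 0.17 (adjusted p = 0.95) and *Xrcc3* at 0.24 ± 0.14 (adjusted p = 0.435, edgeR).

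*Rad51ap1*, *Rad54l* and *Rad54b*, which act in strand exchange, all had a log2 fold change over 1. *Rad51ap1*, whose product helps the broken strand pair with the sister, held 0.278, 0.332 and 0.388 CPM in virgin S-961 and 7.4, 9.69, 4.35 and 0.562 CPM in multipara S-961, with each of the 4 multipara values above the 3 virgin ones. *Rad54l*, a DNA translocase that drives strand exchange, held 1.24, 1.18 and 1.78 CPM in virgin and 6.56, 6.98, 3.96 and 1.48 CPM in multipara. Replicate 4 lay inside the virgin range for *Rad54l*. Log2 fold changes were 4.05 ± 0.85 for *Rad51ap1*, 1.78 ± 0.51 for *Rad54l* and 2.57 ± 0.74 for its relative *Rad54b*, which shares 2068 exon bases on the same strand with *Fsbp* and is therefore uncertain. Without replicate 4, *Rad51ap1* had the smallest adjusted p of the 40 genes, 0.00295, and *Rad54l* and *Rad54b* also passed at 0.012 and 0.00608 (edgeR).

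The Fanconi core, the ubiquitin ligase assembly that recognises stalled forks, was split. *Fanca* and *Fancb* had log2 fold changes of 2.46 ± 0.62 and 2.48 ± 0.77, while the other 6 core genes lay between -0.37 (*Fancf*) and 1.0 (*Fancg*). *Fancb*, a subunit on the X chromosome, held 0.649, 0.604 and 0.55 CPM in virgin and 5.07, 6.26, 1.54 and 0.502 CPM in multipara. *Fance*, which joins the core to FANCD2, held 12.5, 11.3 and 11.9 CPM in virgin and 9.14, 13.7, 9.7 and 12.1 CPM in multipara. In *Fancb* replicates 1 to 3 were above every virgin library and replicate 4 below, whereas the multipara values of *Fance* lay on both sides of the virgin values. Of the 8 core genes, 2 passed without replicate 4 (*Fanca* and *Fancb*, adjusted p = 0.00476 and 0.0246, edgeR).

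The substrates of that ligase and the helicase beside them had fold changes of like size. *Fancd2*, which with FANCI forms the clamp that the core ubiquitinates, held 0.371, 0.845 and 0.55 CPM in virgin S-961 and 7.56, 7.27, 4.5 and 0.68 CPM in multipara S-961. *Brip1*, a helicase that binds BRCA1, held 0.711, 0.845 and 0.485 CPM in virgin and 5.15, 4.48, 2.5 and 0.798 CPM in multipara. In both, replicates 1 to 3 exceeded all virgin libraries and replicate 4 lay inside their range. Log2 fold changes were 3.1 ± 0.75, 2.79 ± 0.73 for *Fanci* and 2.26 ± 0.60, in that order, and without replicate 4 the adjusted p was between 0.00445 and 0.0103 (edgeR).

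Among the genes that process joined molecules, *Blm*, *Eme1* and *Polq* had log2 fold changes of 1.62 ± 0.47, 2.57 ± 0.75 and 2.63 ± 0.84. *Polq*, the polymerase of an end joining route that uses short homologies, held 0.433, 1.03 and 0.291 CPM in virgin and 6.51, 4.04, 3.42 and 0.355 CPM in multipara. *Mus81*, the nuclease that cuts joined molecules together with EME1, held 13.9, 15.7 and 14.8 CPM in virgin and 12.8, 14.1, 13.6 and 14.1 CPM in multipara, a log2 fold change of -0.10 ± 0.12. The subunits of this nuclease therefore differed in range, *Eme1* being low in virgin islets (6, 6 and 15 counts) and *Mus81* well measured everywhere. *Msh6*, which recognises mismatches, held 16.1, 17.7 and 18.1 CPM in virgin and 26.5, 31.5, 20.2 and 17.2 CPM in multipara, and the log2 difference was 0.48 ± 0.21 (adjusted p = 0.506, edgeR). Without replicate 4 the adjusted p was 0.0175 for *Blm*, 0.0285 for *Eme1*, 0.0165 for *Polq*, 0.744 for *Mus81* and 0.121 for *Msh6*.

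Of the 8 checkpoint genes, 3 had a log2 fold change over 1. *Clspn* held 0.155, 0.875 and 0.129 CPM in virgin S-961 and 12, 14, 6.02 and 0.414 CPM in multipara S-961, the largest fold change of the 40 genes at 4.39 ± 1.13. *Topbp1*, the activator of ATR at stalled forks, held 11.3, 13.7 and 10.1 CPM in virgin and 38.7, 36, 24.1 and 14.5 CPM in multipara, with no overlap and a log2 fold change of 1.29 ± 0.32. *Chek2*, the effector kinase of ATM, held 0.34, 0.664 and 0.518 CPM in virgin and 2.58, 1.92, 1.62 and 0.177 CPM in multipara, a log2 fold change of 1.65 ± 0.73. Without replicate 4 these 3 passed, at adjusted p = 0.00945, 0.00853 and 0.0327 (edgeR). The apical kinase *Atr* held 16.4, 15.9 and 12.9 CPM in virgin and 16.5, 13.8, 19.3 and 18.1 CPM in multipara, a log2 fold change of 0.19 ± 0.16. *Trp53*, which encodes p53, held 26.6, 27.8 and 28.6 CPM in virgin and 30.8, 28.9, 23 and 30.5 CPM in multipara, a log2 fold change of 0.046 ± 0.13. The groups overlapped for both genes, and without replicate 4 the adjusted p was 0.712 for *Atr* and 0.973 for *Trp53* (edgeR). *Atm* at 0.23 ± 0.29, *Trp53bp1* at -0.18 ± 0.13 and *Chek1* at 0.0017 ± 0.37 also overlapped, with adjusted p from 0.439 to 0.981 without replicate 4 (edgeR), and their values are given with the S-961 effect below.

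The Ku subunits, which cap broken ends for end joining, had fold changes near 0. *Xrcc5* held 38.3, 34 and 36.8 CPM in virgin S-961 and 29.3, 39.4, 30.4 and 36 CPM in multipara S-961, a log2 fold change of -0.092 ± 0.13. *Xrcc6* held 30.2, 32 and 34.1 CPM in virgin and 33.1, 38.1, 31.6 and 36.5 CPM in multipara, a log2 fold change of 0.13 ± 0.11. Their groups overlapped, and the adjusted p was 0.854 and 0.743 (edgeR), or 0.758 and 0.723 without replicate 4. Over the 40 genes, 4 had all multipara S-961 libraries above all virgin ones (*Bard1*, *Xrcc2*, *Rad51ap1* and *Topbp1*, against 5.23% of all genes tested), and 0 had them all below (3.64%).

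**Figure D3:**
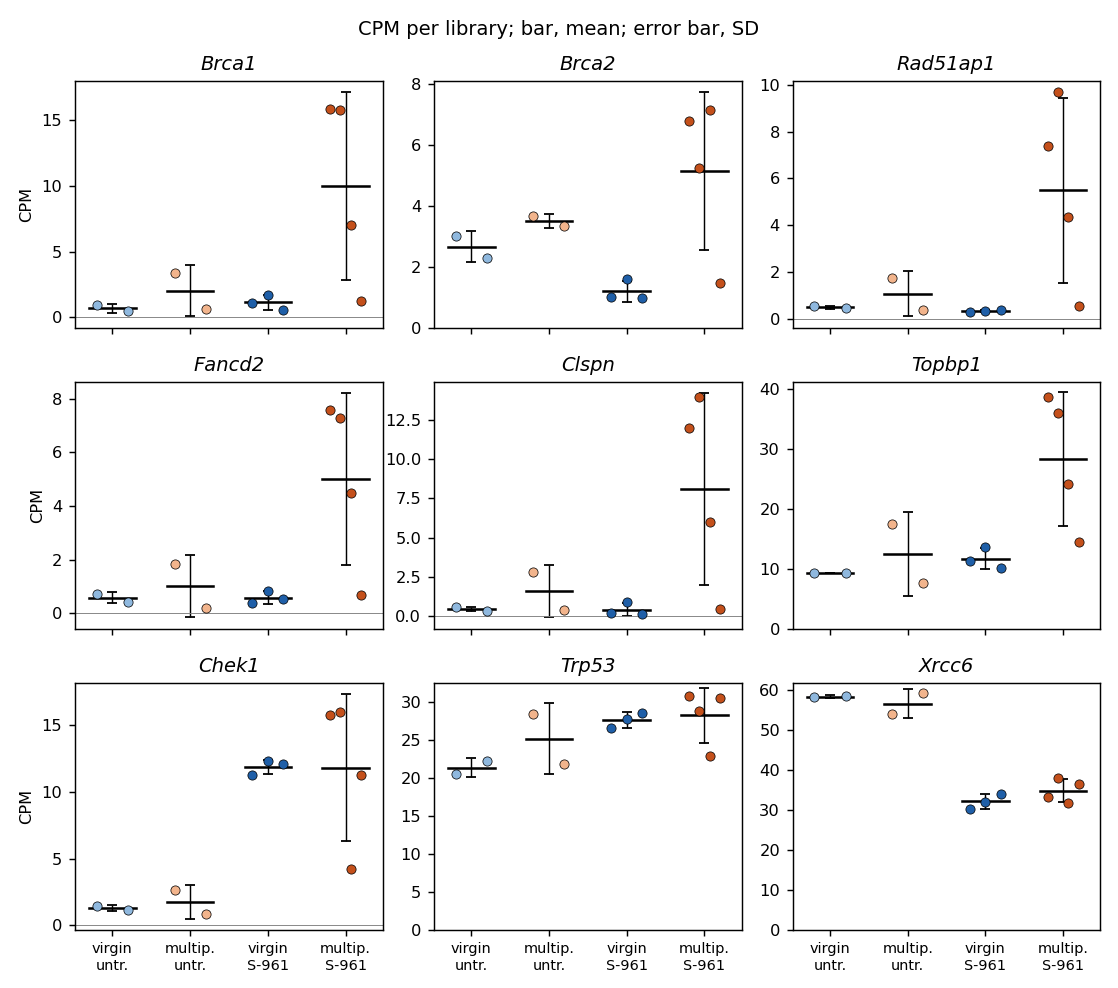
CPM of 9 genes in each of the 11 libraries (points), by group, with the group mean (bar) and SD (error bar). In *Brca1*, *Brca2*, *Rad51ap1*, *Fancd2* and *Clspn* 3 multipara S-961 points lie above all virgin S-961 points and the fourth near them, *Chek1* separates treated from untreated libraries, and *Xrcc6* is lower in all 7 treated libraries. *Trp53* differs little between libraries, though its virgin S-961 points lie above its virgin untreated points.

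The same comparison without treatment rested on 2 libraries a group. Of the 40 genes, 37 had enough counts to be tested, and *Exo1*, *Rad51b* and *Eme1* did not. None of the 37 passed edgeR's quasi-likelihood test (adjusted p between 0.719 and 0.997), 0 had an unadjusted p under 0.05 (2.52% of all genes higher and 3.1% lower), and DESeq2 called 0 of the 40 in either direction (0.138% of its genes higher and 0.207% lower). edgeR called 0.0% of the 15812 genes tested. The median log2 fold change of the 37 was 0.19, against 0.017 over all genes.

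Here too 1 library stood apart. Multipara untreated replicate 1 was the highest of the 4 untreated libraries for 22 of the 37 genes, against 27.0% of all genes tested. *Brca1* held 0.918 and 0.443 CPM in the virgin untreated libraries and 3.39 and 0.63 CPM in the multipara untreated libraries. *Clspn* held 0.536 and 0.322 CPM in virgin and 2.77 and 0.378 CPM in multipara. For *Topbp1* the values were 9.3 and 9.31 CPM in virgin and 17.5 and 7.56 CPM in multipara. In each of these, replicate 1 was above both virgin libraries and replicate 2 at or below one of them. *Fancd2* showed the same order, with 0.727 and 0.443 CPM in virgin and 1.83 and 0.189 CPM in multipara. *Trp53* too was highest in replicate 1, with 20.5 and 22.3 CPM in virgin and 28.5 and 21.9 CPM in multipara. *Brca2*, at 3.02 and 2.3 CPM in virgin and 3.66 and 3.34 CPM in multipara, was higher in both multipara libraries by a margin near the gap between the virgin libraries (log2 fold change 0.40 ± 0.26).

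Without multipara untreated replicate 2, edgeR called 7 of the 40 genes higher (*Brca1*, *Exo1*, *Rad54l*, *Fanci*, *Eme1*, *Topbp1* and *Clspn*, against 8.81% of all genes tested), with adjusted p between 0.00691 and 0.0383, the lone multipara library being assumed to vary like the others. Without replicate 1 it called 0 (0.135%), and the median log2 fold change was -0.086. Replicate 1 is also the library with the immune markers named above, and its cycling cell genes summed to 321 CPM against 126 to 143 CPM in the other 3. The part of immune cells in the repair genes' levels was not tested.

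S-961 was then set against no treatment within each parity group, which asks what blocking the insulin receptor did to islets. In virgin islets 5 of the 40 genes rose (*Fancf*, *Fancm*, *Atm*, *Chek1* and *Trp53bp1*, against 18.8% of 17996 genes) and 3 fell (*Fancl*, *Mus81* and *Xrcc6*, against 17.6%). In multipara islets 5 rose (*Fancm*, *Atm*, *Chek1*, *Topbp1* and *Trp53bp1*, against 18.2%) and 3 fell (*Fancl*, *Mus81* and *Xrcc6*, against 19.4%). Both shares are below those of all genes. Passing in both parity groups were 4 genes that rose (14.1% of all genes) and 3 that fell (12.9%). The comparisons share no library, but all 4 group means come from 1 fit.

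*Trp53bp1*, whose product shields broken ends from resection, held 70.5 and 68.4 CPM in virgin untreated and 145, 144 and 126 CPM in virgin S-961 libraries. In multipara it held 61.2 and 67.3 CPM without and 129, 112, 106 and 136 CPM with S-961. All 7 treated libraries were above all 4 untreated ones, and the log2 fold change was 0.99 ± 0.14 in virgin (adjusted p = 0.000623) and 0.91 ± 0.14 in multipara (adjusted p = 0.000716, edgeR). *Atm*, the kinase that responds to double-strand breaks, held 11.9 and 13.2 CPM in virgin untreated and 33.6, 31 and 18.2 CPM in virgin S-961 libraries. Its multipara values were 12.1 and 11.1 CPM without and 30.1, 18.6, 42.8 and 36 CPM with S-961. Treated libraries were higher in every case but spread widely, and the log2 fold change was 1.14 ± 0.33 in virgin (adjusted p = 0.0215) and 1.45 ± 0.33 in multipara (adjusted p = 0.00643, edgeR).

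*Fancm*, a translocase that docks the Fanconi core on DNA, held 10.9 and 8.91 CPM in virgin untreated and 22.1, 16.8 and 15.2 CPM in virgin S-961 libraries. In multipara islets it held 8.22 and 8.64 CPM without and 23.9, 21, 18.2 and 21.6 CPM with S-961. Its log2 fold change was 0.86 ± 0.19 in virgin (adjusted p = 0.00521) and 1.33 ± 0.19 in multipara (adjusted p = 0.000542, edgeR). *Fancf*, an adaptor inside the core, held 4.02 and 3.87 CPM in virgin untreated and 5.5, 6.7 and 7.51 CPM in virgin S-961 libraries, which is 0.74 ± 0.22 on the log2 scale (adjusted p = 0.0258, edgeR). In multipara *Fancf* held 4.24 and 4.98 CPM without and 4.69, 4.51, 5.1 and 5.85 CPM with S-961, groups that overlapped.

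The genes that fell were lower in every treated library of both parity groups. *Xrcc6* held 58.1 and 58.5 CPM in virgin untreated and 54 and 59.1 CPM in multipara untreated libraries, while all 7 treated libraries lay between 30.2 and 38.1 CPM. Its log2 fold change was -0.86 ± 0.11 in virgin (adjusted p = 0.000447) and -0.70 ± 0.11 in multipara (adjusted p = 0.000871, edgeR). Its Ku partner *Xrcc5* differed by -0.15 ± 0.15 and -0.10 ± 0.14, which did not pass. *Fancl*, the ubiquitin ligase subunit of the Fanconi core, held 13 and 12 CPM in virgin untreated and 6.52, 6.37 and 8.02 CPM in virgin S-961 libraries. Its multipara values were 13.2 and 12.9 CPM without and 6.34, 10.1, 6.67 and 7.09 CPM with S-961. The log2 fold change of *Fancl* was -0.85 ± 0.21 (adjusted p = 0.0106) and -0.79 ± 0.20 (adjusted p = 0.0108, edgeR), in virgin and multipara. *Mus81* held 19 and 18.5 CPM in virgin untreated and 21.4 and 21.2 CPM in multipara untreated libraries, against 12.8 to 15.7 CPM in the treated libraries. Its log2 fold change was -0.34 ± 0.12 in virgin (adjusted p = 0.0401) and -0.64 ± 0.11 in multipara (adjusted p = 0.0014, edgeR).

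Several of these calls did not pass once a library was left out, while their fold changes kept their direction and much of their size. Without 1 virgin library, the log2 fold changes that did not pass were 0.63 to 0.76 for *Fancf*, 0.97 to 1.21 for *Atm*, -0.38 to -0.30 for *Mus81*, -0.90 to -0.78 for *Fancl* and 0.72 for *Fancm*. In virgin islets the adjusted p of *Fancf* was 0.066, 0.0717, 0.122 and 0.154 without S-961 replicate 2, S-961 replicate 3, untreated replicate 1 and untreated replicate 2. For *Atm* it was 0.0705, 0.0607, 0.13 and 0.0992 without S-961 replicate 1, S-961 replicate 2, untreated replicate 1 and untreated replicate 2. *Mus81* in virgin passed in 1 of 12 alternative settings, and with any 1 virgin library left out its adjusted p was 0.0599 to 0.206. *Fancl* in virgin was at 0.0833 without untreated replicate 1 and 0.0557 without replicate 2, and in multipara at 0.0666 and 0.0517. *Fancm* in virgin was at 0.0755 without untreated replicate 2. *Chek1*, *Trp53bp1* and *Xrcc6* passed in both parity groups under all alternatives run, and *Fancm*, *Atm* and *Mus81* did so in multipara.

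Exon length moved with the S-961 effect. Over all genes tested, split by exon length into 4 bins of about equal size, the median log2 fold change in virgin islets was -0.51 in the shortest bin, -0.13 and 0.046 in the middle bins and 0.27 in the longest, and in multipara islets -0.49, -0.10, 0.094 and 0.34. *Trp53bp1*, *Fancm* and *Atm* have 14164, 10440 and 10338 exon bases and belong to the longest bin, whereas *Fancl*, *Mus81* and *Xrcc6* have 3372, 3567 and 4476. With each library's trend on exon length taken out as an offset, the log2 fold change in virgin islets was 0.57 for *Trp53bp1*, 0.53 for *Fancm*, 0.80 for *Atm*, -0.78 for *Fancl* and -0.90 for *Xrcc6*, and these 5 still passed in both parity groups. In multipara islets the offset gave 0.45 for *Trp53bp1*, 0.95 for *Fancm* and 1.04 for *Atm*. *Mus81* in virgin no longer passed (adjusted p = 0.0631, edgeR). The labels name no batch, so that a difference in RNA handling or run between treated and untreated libraries cannot be told apart from S-961. The libraries also differed in cell type markers. Acinar enzymes summed to at least 2036 CPM in treated and at most 201 CPM in untreated libraries, and beta cell markers to at most 226035 and at least 455162 CPM. The part of these differences in the S-961 calls was not tested.

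Most of the genes that edgeR called between multipara and virgin S-961 libraries without multipara S-961 replicate 4 did not pass here in the main fit. In multipara islets the median log2 fold change of the 40 genes with S-961 was 0.87, and -0.093 in virgin islets. *Topbp1* rose in multipara by 1.17 ± 0.40 (adjusted p = 0.0415, edgeR), but did not pass without S-961 replicate 1 (0.0924), S-961 replicate 2 (0.0648) or untreated replicate 2 (0.276), nor with the length offset (0.171). Without multipara S-961 replicate 4, 16 of the 40 genes rose in multipara (18.0% of all genes) and 3 fell (17.8%), and the median was 1.08. In virgin islets *Brca1* held 0.918 and 0.443 CPM without and 1.11, 1.72 and 0.55 CPM with S-961, a difference of 0.72 ± 1.01 on the log2 scale (adjusted p = 0.609, edgeR). *Brca2* in virgin islets was lower in all 3 treated libraries than in both untreated ones, by -1.15 ± 0.54 (adjusted p = 0.117, edgeR).

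**Figure D4:**
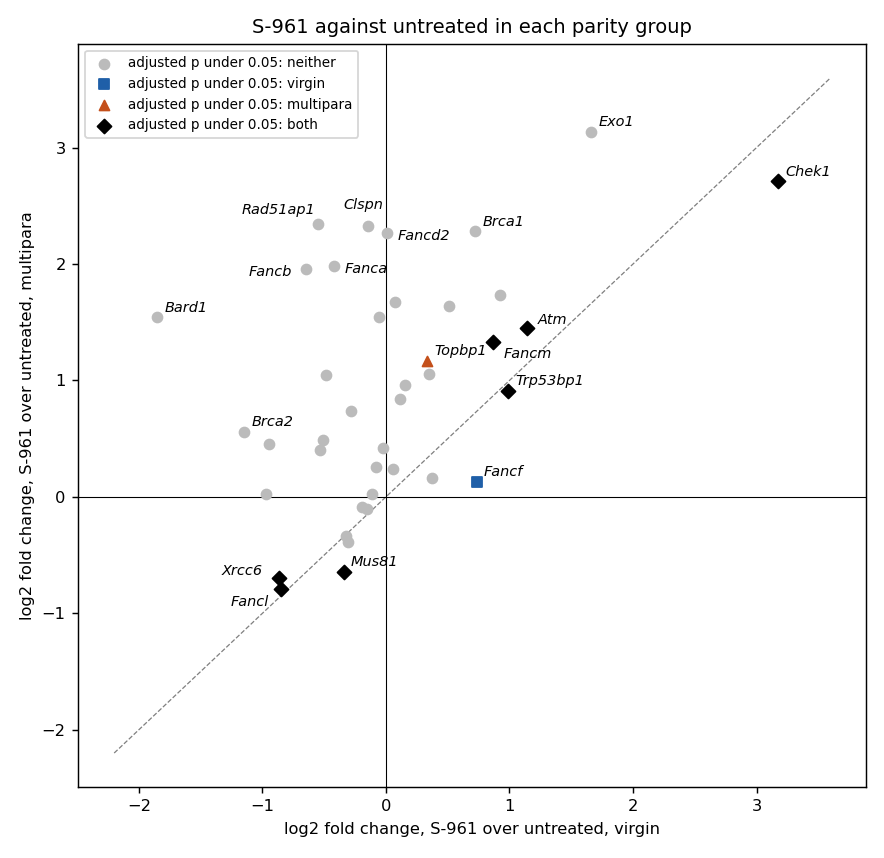
Log2 fold change of S-961 over untreated for the 40 genes in virgin islets (horizontal) and multipara islets (vertical), with the line of equality dashed and symbols showing in which parity group the adjusted p of edgeR was under 0.05. *Chek1*, *Atm*, *Fancm* and *Trp53bp1* lie at the upper right and *Xrcc6*, *Fancl* and *Mus81* at the lower left, while the genes at the upper left such as *Rad51ap1* (-0.55 in virgin, 2.34 in multipara) passed in neither.

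*Chek1*, the effector kinase of ATR, had the largest S-961 effect of the genes that passed, and its pattern was unlike that of the cycling genes. It held 1.45 and 1.17 CPM in virgin untreated and 11.3, 12.3 and 12 CPM in virgin S-961 libraries. In multipara islets it held 2.64 and 0.882 CPM without and 15.7, 16, 4.25 and 11.2 CPM with S-961. All treated libraries were above all untreated ones, multipara S-961 replicate 4 was close to the virgin S-961 libraries, and replicate 3, which was high in *Clspn*, was the lowest treated library. The log2 fold change was 3.17 ± 0.59 in virgin (adjusted p = 0.0022) and 2.71 ± 0.56 in multipara (adjusted p = 0.00403, edgeR), while multipara and virgin S-961 libraries differed on the log2 scale by 0.0017 ± 0.37.

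The gene lies at chr9:36708482-36727065 on the minus strand of GRCm38, and its neighbour *Stt3a*, a subunit of the oligosaccharyltransferase of the endoplasmic reticulum, lies at chr9:36729344-36767679 on the same strand, 2278 bases upstream. *Stt3a* was looked at after the values of *Chek1* were seen. It held 201 and 168 CPM in virgin untreated and 359.6, 321 and 346 CPM in virgin S-961 libraries. In multipara islets it held 143 and 175 CPM without and 346, 362, 194 and 326 CPM with S-961. Both genes were lowest among the treated libraries in multipara replicate 3. *Chek1* amounted to 0.724 and 0.697% of the *Stt3a* CPM in virgin untreated libraries and 3.14, 3.82 and 3.48% in virgin S-961 libraries, and to 1.84 and 0.504% and 4.54, 4.41, 2.19 and 3.45% in multipara, so that its share of its neighbour's level varied. The part of reads that run on from *Stt3a* in the *Chek1* counts was not tested.

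**Figure D5:**
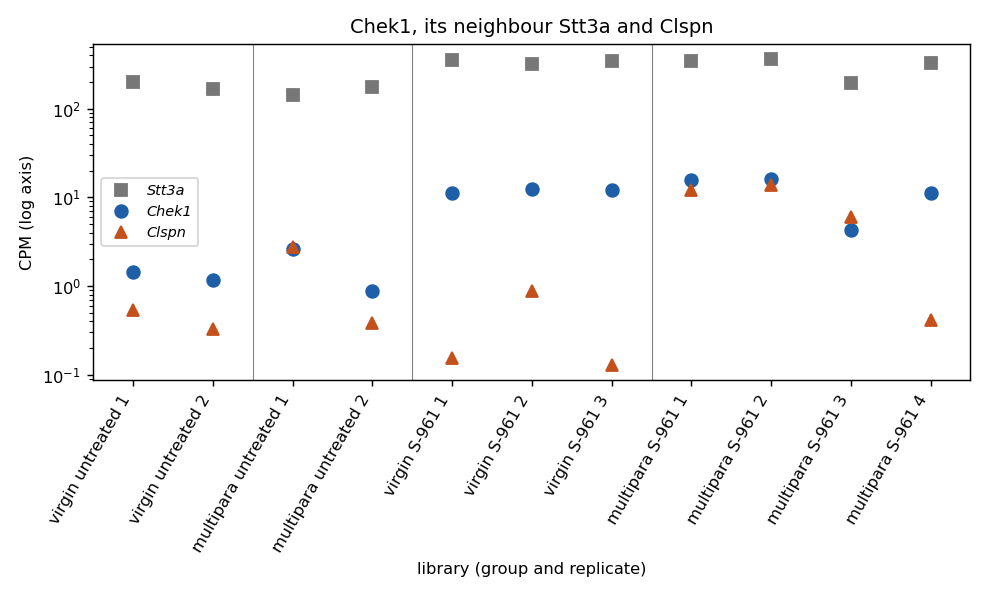
CPM (log axis) of *Chek1* (circles), its upstream neighbour *Stt3a* (squares) and *Clspn* (triangles) in each of the 11 libraries. *Chek1* and *Stt3a* are both higher in the treated libraries with a dip in multipara S-961 replicate 3, while *Clspn* is above 1 CPM only in multipara S-961 replicates 1 to 3 and multipara untreated replicate 1.

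Whether the effect of parity differed between treated and untreated islets was tested as an interaction over all 11 libraries. None of the 40 genes passed (0.0% of 17996 genes, edgeR), 4 had an unadjusted p under 0.05 in the positive direction (4.27% of all genes) and 0 in the negative (2.28%), and DESeq2 called 0 of the 40 (0.391% of its genes in the positive direction and 0.13% in the negative). The 4 were *Bard1* at 3.4 ± 1.23, *Brca2* at 1.71 ± 0.75, *Fanca* at 2.41 ± 1.05 and *Fancb* at 2.6 ± 1.13, with adjusted p between 0.704 and 0.758. The median of the 40 interaction values was 0.81, against -0.036 over all genes, and 1.1 without multipara S-961 replicate 4.

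Other DNA repair genes were set beside the 40. These lists, like the 40, were chosen with earlier results of these data known, so that they are no independent background. Of 50 further genes of recombination, the Fanconi pathway and the checkpoint, 7 had a log2 fold change over 1 between multipara and virgin under S-961, with a median of 0.12, and 0 passed the test (8 were higher at an unadjusted p under 0.05, and 3 passed with DESeq2). Without multipara S-961 replicate 4, edgeR called 6 of these 50 higher and 0 lower, against 20 and 0 of the 40, with a median of 0.15. *Rmi2*, a partner of BLM, stood at 2.46 ± 0.68. At the lower end were *Atrip*, the partner of ATR, at -0.41 ± 0.24 and the nuclease *Fan1* at -0.30 ± 0.19.

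The median log2 fold change in this comparison was -0.055 for 8 other end joining genes, -0.11 for 12 nucleotide excision repair genes, 0.045 for 16 base excision repair genes, -0.00023 for 6 other mismatch repair genes and 0.16 for 30 p53 target genes. None of these genes passed with edgeR, and at an unadjusted p under 0.05 the numbers higher were 0, 0, 2, 1 and 2 in that order, with 0, 0, 1, 0 and 1 called by DESeq2. Without multipara S-961 replicate 4, edgeR called 0, 0, 2, 0 and 1 of them higher and 0 lower. With S-961 against no treatment in virgin islets, 9 of the 50 rose and 11 fell, and in multipara islets 11 rose and 8 fell, near the shares of all genes given above. *Fan1* rose in both, by 1.55 ± 0.24 in virgin and 1.24 ± 0.24 in multipara (adjusted p = 0.000982 and 0.00254, edgeR).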

How the data were processed

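Bulk RNA-seq of islets was available as 1 table of estimated counts per library. The authors deposited these estimated counts, not whole for 4449 to 5162 genes per library, after poly(A) selection and a strand-specific kit. The submitters' processing notes name STAR, RSEM, GRCm38 and mm10, and neither the versions nor the strand setting of the counting is given in the sources used here. Counts were rounded. Coordinates and exon lengths came from GENCODE M21 (GRCm38), in which all 55536 genes were found. Groups followed the sample titles. The study counts the S-961 groups in mice, with as many mice as libraries. For the untreated libraries no source used here says so, and p-values measure the spread between these libraries. Parity was taken from the labels and checked by no marker.

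Tests used edgeR 4.0.16 in R 4.3.3: TMM, filterByExpr (minimum count 10, minimum total 15), the quasi-likelihood F-test and Benjamini-Hochberg adjustment over all genes tested, at 0.05. Parity comparisons used their own libraries, the others all 11. The SE was taken from the fold change and its F value. Alternatives were DESeq2 1.42.0, its size factors, totals without *Ins1* and *Ins2*, no low-count filter, a replicate block, single-group fits, each library left out and, added after the data were seen, an exon length offset. The fits were tested on simulated counts. Values in every library were given for the extremes of each role, genes that passed and 11 preset genes. Some genes of the further lists are counted but not reported here by name. The 40 genes and all lists were chosen with earlier results of these data known. Reads of genes that overlap on opposite strands, such as *Trp53bp1* and *Tubgcp4*, cannot be separated if strand was not used. Sequences came from RefSeq (GRCm38.p6).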

Additional observations from a re-analysis of the deposited data

Results flagged for a closer look

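Of the 40 genes, 2 had a library far from the other 3 among the multipara S-961 libraries by Dixon's test. Chance passes this test about 1 time in 20, so that the count is about what chance alone would give. Both were lowest in multipara S-961 replicate 4. *Rad51b* stood at 0.0591 CPM there against 1.14, 1.25 and 0.824 CPM in replicates 1, 2 and 3. *Xrcc3*, also a gene of homologous recombination, stood at 9.49 CPM against 17.2, 16.5 and 16.5 CPM, below the 12.3 to 15.7 CPM of the virgin S-961 libraries too. The *Rad51b* value is 2 counts, and *Xrcc3* is well measured in all 11 libraries.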

How the results depend on the processing

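No gene that passed a test in the main fit reversed its direction under any alternative run. The median of the 40 changed sign in untreated islets and for S-961 in virgin islets. So did fold changes of genes that passed no test in the main fit, and not all of these were near 0. In untreated islets the log2 fold change of *Brca1* was -0.14 without multipara replicate 1 and 2.32 without replicate 2. For *Clspn* these values were -0.21 and 2.69. Of the count and median values 285 stayed close to the reported ones and 34, 15 and 2 were larger, smaller or moved. For multipara against virgin under S-961, DESeq2 called 330 genes higher and 9 lower, with 19 of the 40 higher. The same replicate numbers in the labels were tried as a replicate block: 309 genes higher, 33 lower and 17 of the 40 higher, where multipara replicate 4 has no partner and so drops out of the contrast by construction. In this comparison samples with the same number correlated at 0.056, 0.012 and 0.093 in their deviations from the group means. Between virgin and multipara untreated libraries the value was 0.28. The numbers were not taken as pairs. Leaving out 1 library gave 0 to 447 genes higher, 0 to 78 lower, 0 to 20 of the 40 higher and a median of 1.09 to 1.53, the upper values without multipara replicate 4. In untreated islets, DESeq2 called 22 genes higher and 33 lower, the fit without a low-count filter 2 and 1, and leaving out 1 library 0 to 1485 and 0 to 253, with 0 to 7 of the 40 higher and a median of -0.086 to 0.43.

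For S-961 in virgin islets, the main fit called 18.8% of all genes higher and 17.6% lower. The replicate block left 3 of the 40 higher with a median of 0.055, and the single-group fit and the exon length offset each called 5 lower. With the offset these were *Fancl*, *Rad51c*, *Xrcc6*, *Atr* and *Brca2*. Leaving out 1 library gave 1548 to 3289 genes higher, 1505 to 2832 lower, 2 to 4 of the 40 higher, 1 to 2 lower and a median of -0.20 to 0.030. In multipara islets, 9 of the 40 were higher with DESeq2, 10 without a low-count filter and 19 with the replicate block, and the single-group fit called 2112 genes higher and 2316 lower. The main fit called 18.2% of all genes higher there, and the shares of all genes under the first 3 alternatives are not reported here. Leaving out 1 library gave 1585 to 3659 genes higher, 2033 to 3792 lower, 4 to 16 of the 40 higher, 2 to 3 lower and a median of 0.50 to 1.36. For the interaction, genes higher and lower were 66 and 22 with DESeq2, 2 and 2 without a filter, 14 and 20 with the block, and 0 to 19 and 0 to 32 with 1 library left out, with 0 of the 40 in all of these and a median of 0.35 to 1.15. Without TMM the median span of the 40 over the 11 libraries was 2.91. Under the block *Fancf*, *Atm* and *Mus81* no longer passed in virgin islets. Of the 11 libraries only multipara S-961 replicate 4 has that replicate number. Under the block it therefore drops out of the multipara and interaction contrasts as well. Beyond that, the cause of these shifts was not tested. Depth limits *Rad51b* and *Exo1*, with at most 9 and 23 counts in any library other than multipara S-961 replicates 1 to 3.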
